A study of Mus musculus with 10 samples.

Results

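Expression of 10 genes that make, break down or bind hyaluronan was described in 10 mouse melanomas, 5 labelled Fes KO and 5 labelled Fes WT. The genes were Has1, Has2 and Has3 (synthases), Hyal1, Hyal2, Cemip and Tmem2 (breakdown), and Cd44, Vcan and Hapln1 (binding). They were found by symbol among the 47643 genes of the deposited tables, and all 10 passed the filter on low counts. They were chosen by function, with their levels and log2 fold changes in these same tumours already known. Differences between the groups are therefore given as a description, and nothing rests on them.

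All mice carried Tyr::CreERT2/+, BRafV600E/+ and Ptenl/l, and the groups differed as Fes-/- (Fes KO) and Fes+/+ (Fes WT). CreERT2, a tamoxifen-inducible recombinase, is driven by the promoter of the pigment gene Tyr, and it was induced with 5 mM 4-hydroxytamoxifen applied to the back skin. Fes encodes a cytoplasmic tyrosine kinase, and its allele is written without a conditional mark, so the labels place its loss in host cells as well as in tumour cells. The sources used here give no age, sex or strain. They do not say if each tumour is from its own mouse. The p-values weigh group differences against the spread between tumours, which may not be the spread between mice.

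Hyaluronan is a long, unsulfated sugar chain that fills the matrix of skin and of many tumours. Synthases in the plasma membrane build it from UDP-glucuronic acid and UDP-N-acetylglucosamine and push it out of the cell. Cells bind it through receptors such as Cd44, proteoglycans such as versican are fixed on it by link proteins, and hyaluronidases cut it for uptake and lysosomal digestion.

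Total counts ranged from 13226783 to 16599120 per tumour. Fes was at 29.2 to 57.5 CPM (CPM is the count scaled to a common depth by TMM library sizes) in Fes KO and at 72.5 to 102 CPM in Fes WT, without overlap (log2 fold change -1.06, SE 0.19, edgeR adjusted p = 0.0846). Of 8 melanocyte markers, 6 were above 0 in every tumour, with Tyrp1 and Mlana at 0 in at least 1 tumour, and their summed level was 810 to 1039 CPM in Fes KO and 520 to 869 CPM in Fes WT. Skin and muscle content differed between tumours. Summed keratinocyte markers were at 4665 CPM in Fes KO 2 and at 9.33 to 197 CPM elsewhere, and summed skeletal muscle markers were at 14230 CPM in Fes WT 3 and at 2.33 to 1752 CPM elsewhere. Xist, expressed from an inactive X chromosome, was at 670 to 720 CPM in Fes KO 1, Fes KO 2 and Fes WT 5 while the remaining tumours reached at most 0.678 CPM.

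Levels of different genes were compared per length, as CPM per kilobase of exon, averaged over 10 tumours. Vcan, which encodes the large proteoglycan versican, led at 35.0 ± 10.6, followed by Cd44 at 29.2 ± 11.6 and Hapln1 at 20.8 ± 21.02 CPM per kilobase (SD, n = 10). Hyal2 was at 8.12 ± 1.73, Has2 at 6.26 ± 3.17 and Tmem2 at 5.81 ± 1.08 CPM per kilobase. Hyal1 was at 2.10 ± 0.67 and Cemip at 1.13 ± 2.57, and Has1 and Has3 were lowest at 0.40 ± 0.42 and 0.37 ± 0.25 CPM per kilobase. Tmem2 lay above Hyal1 in 10 of 10 tumours, and Hyal1 lay above Cemip in 9. Has2 lay above Tmem2, Cemip above Has1 and Has1 above Has3 in only 5 of 10 tumours each, so these neighbours had no settled order. Hapln1 lay above Hyal2 in 6 and below Cd44 in 7 of 10 tumours.

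**Figure D1:**
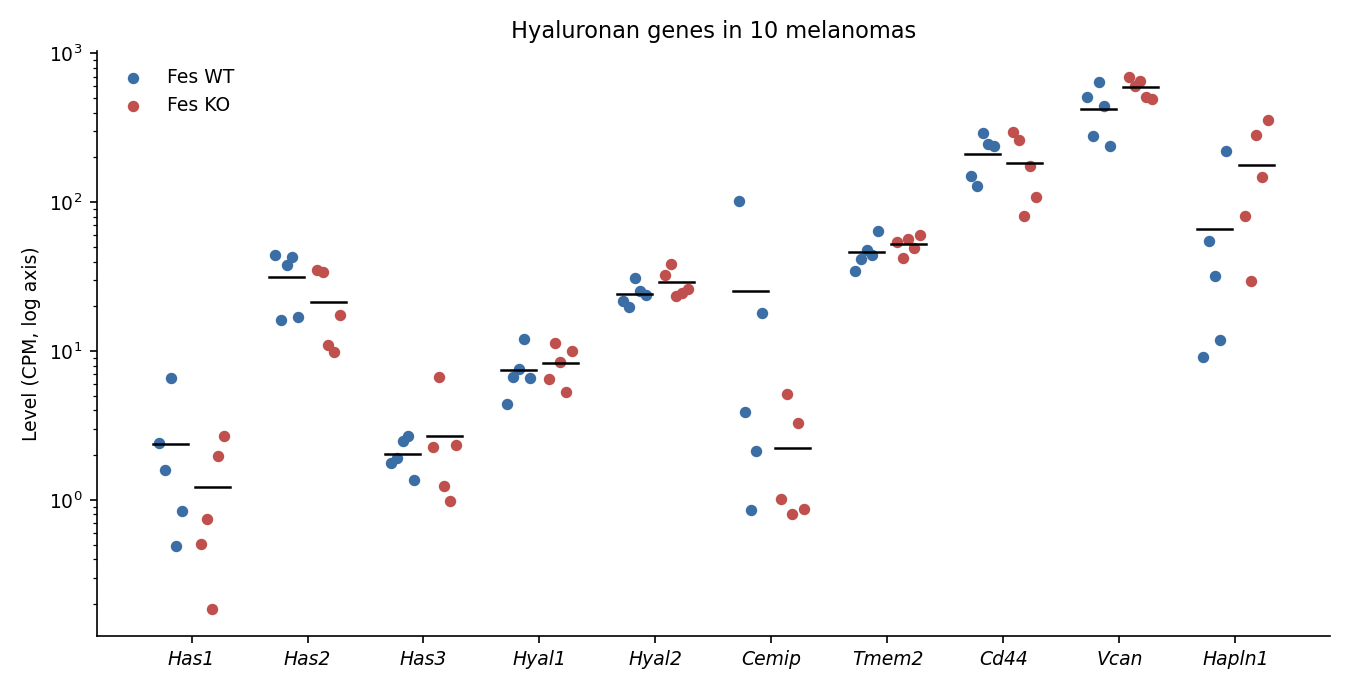
Level of each gene in CPM (log axis) in the 5 Fes WT tumours (blue) and 5 Fes KO tumours (red), with a bar at the group mean and tumours in the order of their number. Hapln1 spans 9.08 to 356 CPM and Cemip 0.801 to 102 CPM, while Tmem2 stays within 34.6 to 64.2 CPM, and the groups overlap for every gene.

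The genes differed widely in how much they varied between tumours. The SD of log2 CPM over 10 tumours was 2.18 for Cemip, 1.87 for Hapln1 and 1.30 for Has1, against a median of 0.29 over all tested genes. Only 0.803% of the tested genes varied as much as Cemip, and 1.48% as much as Hapln1. Tmem2 at 0.27 and Hyal2 at 0.29 lay at the median.

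No gene of the 10 passed the threshold between Fes KO and Fes WT in the edgeR quasi-likelihood fit over 14816 genes, where 0.175% of all tested genes had an adjusted p below 0.05. At an unadjusted p below 0.05 there was 1 gene, Cemip, where 9.62% of all tested genes lay, and the groups overlapped in all 10 genes, where 1.9% of tested genes did not overlap. DESeq2 put 1 of the 10, Cemip, below an adjusted p of 0.05, against 1.7% of its genes, and limma-voom put none there, against 0.776%. Of 10 log2 fold changes 6 lay above 0, beside 7760 of all 14816 tested genes, with a median of 0.16 beside 0.01 for all tested genes. In bulk tumour RNA, fewer cells of a type and less RNA per cell cannot be told apart.

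**Figure D2:**
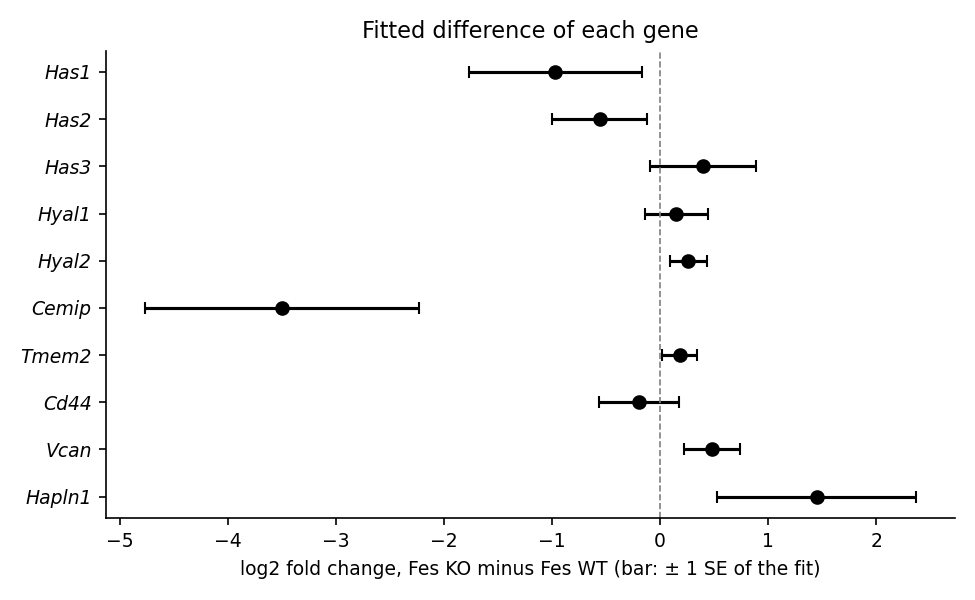
Fitted log2 fold change of each gene, Fes KO minus Fes WT, with 1 SE of the edgeR fit on either side and a dashed line at 0. Cemip lies lowest at -3.50 (SE 1.27) and Hapln1 highest at 1.45 (SE 0.92), and no gene passed the adjusted threshold.

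Has2, usually the main synthase of fibroblasts and other mesenchymal cells, carried most of the synthase RNA (chromosome 15, 56665627 to 56694539, GRCm38). In Fes KO 1 to 5 it was at 35.1, 34.0, 11.03, 9.81 and 17.4 CPM. In Fes WT 1 to 5 it was at 44.1, 16.2, 37.7, 42.7 and 17.0 CPM. The tumours thus fell into a low range of 9.81 to 17.4 CPM and a high range of 34.0 to 44.1 CPM, each with tumours of both genotypes, and no tumour lay between. The means were 21.5 ± 12.3 CPM in Fes KO against 31.6 ± 13.9 CPM in Fes WT (SD, n = 5 each), with a log2 fold change of -0.56 (SE 0.44, edgeR adjusted p = 0.716). Leaving out the 3 Xist-expressing tumours gave -1.47 (adjusted p = 0.149). The annotation places the antisense RNA Has2os on the opposite strand of Has2, and because the strand setting of the counting is not given, reads of the pair cannot be told apart where they overlap. The same holds for the other genes apart from Has1 and Cemip, since each of those others has an annotated gene on its opposite strand. Has2os, named after its values were seen, was at 0.802 to 2.08 CPM in Fes KO and 2.13 to 2.99 CPM in Fes WT. These low ranges nearly touch, and 1.9% of all tested genes had groups that did not overlap. No group difference of Has2os is drawn from them.

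Has1, a synthase that is usually low in unstimulated cells, was counted with 3 to 100 reads per tumour (chromosome 17, 17843323 to 17855205). It was at 0.504, 0.748, 0.185, 1.96 and 2.70 CPM in Fes KO 1 to 5 and at 2.42, 1.59, 6.56, 0.488 and 0.838 CPM in Fes WT 1 to 5. The highest value belonged to Fes WT 3 and the lowest to Fes KO 3, 35.5-fold apart, and the range within a group was 14.6-fold in Fes KO and 13.4-fold in Fes WT. The log2 fold change of -0.97 (SE 0.80, edgeR adjusted p = 0.724) became -0.14 without Fes WT 3 and -1.48 without Fes KO 5. Fes WT 3 also led in skeletal muscle markers, where 6 of 8 were above 0 in all tumours (Ckm and Myh4 were at 0 in some), and their summed level was 2.33 to 1752 CPM in Fes KO and 3.74 to 14230 CPM in Fes WT. The order differed in other tumours. Fes KO 5, at 2.33 CPM of muscle markers, had Has1 at 2.70 CPM, and Fes KO 2, at 1752 CPM, had 0.748 CPM. Fes WT 1, at 370 CPM, had Has1 at 2.42 CPM. With keratinocyte and skeletal muscle marker levels as covariates, the log2 fold change of Has1 was -0.24 (edgeR adjusted p = 0.941). The part of muscle alone in the Has1 level was not tested.

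Has3, the synthase of epidermal keratinocytes among other cells, was also low, at 15 to 107 reads per tumour (chromosome 8, 106870242 to 106884566). It was at 2.27, 6.67, 1.23, 0.981 and 2.33 CPM in Fes KO 1 to 5 and at 1.76, 1.91, 2.49, 2.69 and 1.37 CPM in Fes WT 1 to 5. Its opposite strand holds the protein-coding gene Chtf8, whose reads cannot be told apart from those of Has3 where they overlap. Fes KO 2 stood above all other tumours, which lay between 0.981 and 2.69 CPM. Fes KO 2 was also the tumour with the most RNA of keratinocyte and of hair follicle markers. Its summed hair follicle level was 12700 CPM, against 0.219 to 856 CPM elsewhere. Fes WT 5 came next in keratinocyte markers, at 197 CPM, with Has3 at 1.37 CPM. The part of either tissue in the Has3 level was not tested. Of 9 keratinocyte markers, 5 were above 0 in every tumour (Krt1, Krt15, Krt5 and Krtdap were at 0 in some), and their summed level was 9.33 to 4665 CPM in Fes KO and 13.5 to 197 CPM in Fes WT. The log2 fold change of Has3 was 0.40 (SE 0.49, edgeR adjusted p = 0.826), and without Fes KO 2 it turned to -0.28 (adjusted p = 0.799).

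Per length, Has2 made up 79.8% to 94.7% of the summed synthase level in Fes KO and 82.8% to 95.0% in Fes WT. Its mean share was 86.8% ± 6.502 in Fes KO and 89.4% ± 5.09 in Fes WT (SD, n = 5 each), a difference smaller than either SD. The Has1 share was highest in Fes KO 4 and Fes WT 3, at 15.0% and 13.5%, and the Has3 share in Fes KO 2, at 11.3%.

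**Figure D3:**
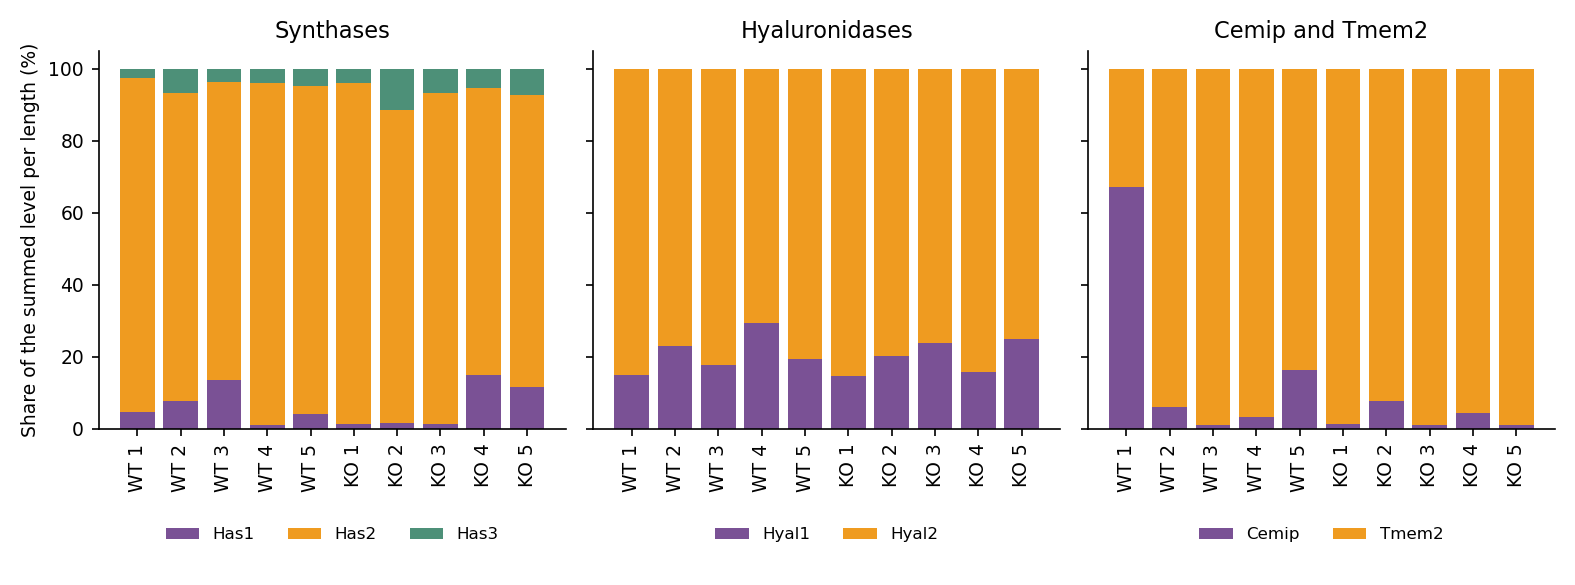
Share in percent of the summed level per length, by tumour, of the 3 synthases, of the 2 hyaluronidases Hyal1 and Hyal2, and of Cemip and Tmem2. Has2 leads in all tumours with at least 79.8%, Hyal2 with at least 70.6%, and Cemip exceeds Tmem2 only in Fes WT 1, at 67.2%.

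Hyal2, a membrane-anchored enzyme that cuts hyaluronan into mid-sized pieces, was among the steadiest of the genes (chromosome 9, 107567945 to 107572779). It was at 32.5, 38.7, 23.5, 24.6 and 26.3 CPM in Fes KO 1 to 5 and at 21.9, 19.7, 30.9, 25.3 and 23.9 CPM in Fes WT 1 to 5. Its highest tumour, Fes KO 2, was 1.96-fold above its lowest, Fes WT 2. The log2 fold change was 0.26 (SE 0.17, edgeR adjusted p = 0.646).

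Hyal1, the lysosomal hyaluronidase, lies 4.1 kb from Hyal2 (chromosome 9, 107576927 to 107581710). It was at 6.49, 11.3, 8.51, 5.30 and 9.98 CPM in Fes KO 1 to 5 and at 4.44, 6.75, 7.61, 12.1 and 6.63 CPM in Fes WT 1 to 5. The groups overlapped almost entirely, with a log2 fold change of 0.15 (SE 0.29, edgeR adjusted p = 0.901) that became -0.01 without Fes KO 2. Hyal1 overlaps Naa80 and Hyal3 on its own strand, so its counts are uncertain. The Hyal3 gene was at 0.0653 to 0.457 CPM, and Naa80, listed in the files as Nat6, at 18.3 to 32.1 CPM. Hyal1 made up 14.8% to 24.9% of the Hyal1 and Hyal2 level per length in Fes KO and 15.0% to 29.4% in Fes WT.

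Cemip, a secreted or membrane-bound hyaluronan-depolymerizing protein of dermal fibroblasts, had the widest range of all 10 genes (chromosome 7, 83932857 to 84086502). It was at 102 CPM in Fes WT 1, from 1560 reads, and at 18.0 CPM in Fes WT 5, while Fes WT 2, 3 and 4 had 3.88, 0.853 and 2.14 CPM. In Fes KO 1 to 5 it was at 1.01, 5.18, 0.801, 3.27 and 0.875 CPM, from 12 to 83 reads. Fes WT 1 and Fes WT 5 were the high tumours, and the other Fes WT tumours lay within the Fes KO range. The mean was 2.23 ± 1.95 CPM in Fes KO against 25.4 ± 43.3 CPM in Fes WT (SD, n = 5 each), so the SD of Fes WT exceeded its mean. The log2 fold change of -3.50 (SE 1.27, edgeR adjusted p = 0.420) became -1.47 (adjusted p = 0.778) without Fes WT 1. In DESeq2 the same value of -3.50 had an adjusted p of 0.0467, and without Fes WT 1, an alternative added after the values were seen, DESeq2 no longer called it. Cemip lies 3.54 Mb from Fes on the same chromosome, so sequence carried along with the targeted Fes allele and loss of Fes cannot be told apart for it.

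Tmem2, named Cemip2 in the annotation, encodes a transmembrane relative of Cemip described in mouse as a cell-surface hyaluronidase (chromosome 19, 21778342 to 21858360). It was at 54.0, 42.2, 56.6, 49.6 and 60.1 CPM in Fes KO 1 to 5 and at 34.6, 41.4, 47.8, 44.5 and 64.2 CPM in Fes WT 1 to 5. Fes WT 5 was highest and Fes WT 1 lowest, 1.85-fold apart, so both ends lay in Fes WT. The log2 fold change was 0.18 (SE 0.16, edgeR adjusted p = 0.755). Cemip made up 67.2% of the summed Cemip and Tmem2 level per length in Fes WT 1, 16.3% in Fes WT 5 and 0.977% to 7.87% in the other tumours.

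Cd44, the main cell-surface receptor of hyaluronan, was high in every tumour (chromosome 2, 102811141 to 102901665). It was at 296, 261, 80.5, 175 and 109 CPM in Fes KO 1 to 5 and at 150, 130, 293, 246.5 and 238 CPM in Fes WT 1 to 5. Both the highest and the lowest tumour were Fes KO, 3.67-fold apart. The means of 184 ± 93.3 CPM in Fes KO against 211 ± 68.9 CPM in Fes WT (SD, n = 5 each) differed by less than either SD, with a log2 fold change of -0.20 (SE 0.37, edgeR adjusted p = 0.896). The counts are per gene, so the Cd44 splice forms were not analysed here.

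Vcan was the most abundant of the genes (chromosome 13, 89655312 to 89742509). It was at 691, 606, 652, 509 and 495 CPM in Fes KO 1 to 5 and at 514, 281, 639, 442 and 238 CPM in Fes WT 1 to 5. The Fes KO tumours lay close together, 1.395-fold from lowest to highest, and the Fes WT tumours spread 2.68-fold, with Fes WT 1 and Fes WT 3 within the Fes KO range. The means were 591 ± 86.4 CPM and 423 ± 166 CPM (SD, n = 5 each), with a log2 fold change of 0.48 (SE 0.26, edgeR adjusted p = 0.585). With the keratinocyte and skeletal muscle marker levels as covariates, Vcan had 0.89 with an edgeR adjusted p of 0.0113, in a fit that called 0.749% of tested genes. Those levels were highest in Fes KO 2 and Fes WT 3. With both tumours left out Vcan had 0.67 with an edgeR adjusted p of 0.376, and no other alternative called it.

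Hapln1, the link protein that locks versican and related proteoglycans onto hyaluronan, is the neighbour of Vcan, 43.7 kb away (chromosome 13, 89539796 to 89611652). It was at 80.8, 29.5, 283, 147 and 356 CPM in Fes KO 1 to 5. In Fes WT 1 to 5 it was at 9.08, 54.9, 32.1, 11.8 and 220 CPM. Fes KO 3, 4 and 5 and Fes WT 5 were the high tumours, while Fes KO 2 lay among the other Fes WT tumours and Fes KO 1 above them. The means were 179 ± 137 CPM in Fes KO against 65.7 ± 88.4 CPM in Fes WT (SD, n = 5 each), with a log2 fold change of 1.45 (SE 0.92, edgeR adjusted p = 0.639). Fes KO 1, Fes KO 2 and Fes WT 5 are the 3 tumours that express Xist. Without them only Fes KO 3, 4 and 5 and Fes WT 1 to 4 remained. This leaves out the lowest Fes KO values of Hapln1, 80.8 and 29.5 CPM, and its highest Fes WT value, 220 CPM. The log2 fold change was then 3.27 with an edgeR adjusted p of 0.0855, in a fit that called 64 genes and none of the 10. How many of all genes shift as far in so few tumours was not counted, so nothing is drawn from this larger value. Without Fes WT 5 alone the log2 fold change of Hapln1 was 2.73 with an edgeR adjusted p of 0.239.

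The ratio of Hapln1 to Vcan per length ranged from 0.0433 in Fes WT 1 to 2.27 in Fes WT 5. It exceeded 1 in Fes KO 3, at 1.06, in Fes KO 5, at 1.76, and in Fes WT 5. Over 10 tumours the log2 CPM of these adjacent genes had a Pearson's r of -0.12 (permutation p = 0.728, adjusted p = 0.938) and a Spearman's rho of -0.04 (permutation p = 0.919, adjusted p = 1.0). Without Fes WT 2 and Fes WT 5 the pooled r was 0.26, so the sign of the pooled r rests on those tumours. Centred within each group r was -0.64 (exact permutation p = 0.0840, adjusted p = 0.378). It was -0.39 within Fes KO and -0.76 within Fes WT (n = 5 each).

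The bases before the RefSeq start of transcription are shown for the most variable gene, Cemip, and for the adjacent pair Vcan and Hapln1. RefSeq promoters (GRCm38.p6) matched 7 of the 10 genes, and 250 bases before the start were searched on both strands for 5 motifs. These were the AP-1 site (TGANTCA), the TEAD site (GGAATG), the M-box core (CATGTG), the GC box (GGGCGG) and the TATA box (TATAAA), none of which overlapped another kind. They occur in 6.75%, 12.6%, 12.3%, 32.7% and 12.4% of 32851 promoters of the same length. Capitals mark matches, 5′ to 3′ on the strand of the gene. The RefSeq start of Hapln1 lies 840 bases downstream of the start of its GENCODE span given above, so its window is within that span and the bases before the GENCODE start were not searched.
Cemip, chr7:84086506-84086755, minus strand
Cemip: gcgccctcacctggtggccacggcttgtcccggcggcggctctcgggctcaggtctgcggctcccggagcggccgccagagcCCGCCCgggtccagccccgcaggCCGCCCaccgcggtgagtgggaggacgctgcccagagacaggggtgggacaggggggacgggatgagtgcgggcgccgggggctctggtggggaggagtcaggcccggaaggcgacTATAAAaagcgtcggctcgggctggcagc
Vcan, chr13:89742513-89742762, minus strand
Vcan: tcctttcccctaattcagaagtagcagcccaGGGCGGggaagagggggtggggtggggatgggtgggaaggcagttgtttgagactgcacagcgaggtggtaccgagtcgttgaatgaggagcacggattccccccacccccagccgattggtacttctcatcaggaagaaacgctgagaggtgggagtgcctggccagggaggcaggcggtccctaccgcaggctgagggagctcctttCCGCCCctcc
Hapln1, chr13:89540386-89540635, plus strand
Hapln1: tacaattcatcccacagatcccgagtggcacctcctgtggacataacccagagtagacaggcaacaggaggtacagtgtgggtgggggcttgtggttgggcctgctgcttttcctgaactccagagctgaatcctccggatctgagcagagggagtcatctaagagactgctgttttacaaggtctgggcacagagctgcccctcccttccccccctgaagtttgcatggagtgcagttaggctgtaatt
Cemip has a TATA box whose first base lies 29 bases before the start, and 2 GC boxes at 168 and 145 bases. Vcan has GC boxes at 219 and 10 bases, and the Hapln1 window before its RefSeq start has none of the 5 motifs. The GC content is 75.2% for Cemip, 62.4% for Vcan and 54.4% for Hapln1. These matches are a description of the letters only.

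Whether the genes rise and fall together over the tumours was asked with 45 pairs of log2 CPM values. None of the 45 pairs passed an adjusted p of 0.05 by permutation (Benjamini-Hochberg over 45), and 5 had an unadjusted p below 0.05. The lowest p belonged to Hapln1 and Tmem2, whose r was 0.87 (2-sided permutation p = 0.00162, adjusted p = 0.0729) and whose rho was 0.87 (p = 0.00204, adjusted p = 0.0918). Within Fes KO their r was 0.90 and within Fes WT 0.84, and with both groups centred it was 0.85 (exact permutation p = 0.00556, adjusted p = 0.169). Without Fes WT 1 and Fes WT 5, the tumours farthest from the median of Tmem2, r was 0.81. Leaving out 1 tumour at a time gave 0.81 to 0.91, and the pair passed without Fes WT 2 (exact permutation adjusted p = 0.0407). Among all 14815 other tested genes, 1.82% had as large an absolute r with Hapln1 as Tmem2 had. The size of the change differed between the pair, since Hapln1 spanned 39.2-fold and Tmem2 1.85-fold.

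Hapln1 and Has2 were also set side by side. In Fes WT 1 and Fes WT 4, with Has2 at 44.1 and 42.7 CPM, Hapln1 was at its lowest with 9.08 and 11.8 CPM. In Fes KO 3, 4 and 5 and Fes WT 5, with Has2 at 9.81 to 17.4 CPM, Hapln1 was at 147 to 356 CPM. Fes WT 2 was low for Has2, at 16.2 CPM, with Hapln1 at 54.9 CPM. In Fes KO 1, Fes KO 2 and Fes WT 3, with Has2 at 34.0 to 37.7 CPM, Hapln1 was at 29.5 to 80.8 CPM. The pair did not pass among the 45, with a permutation adjusted p of 0.161 for Pearson's r and 0.389 for Spearman's rho, and an exact permutation adjusted p of 0.182 with both groups centred. Because Has2 falls into separate ranges of 5 tumours each, no pooled coefficient is given, and the relation was not tested within a range. The ratio of Hapln1 to Has2 per length ran from 0.148 in Fes WT 1 to 18.4 in Fes KO 3.

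**Figure D4:**
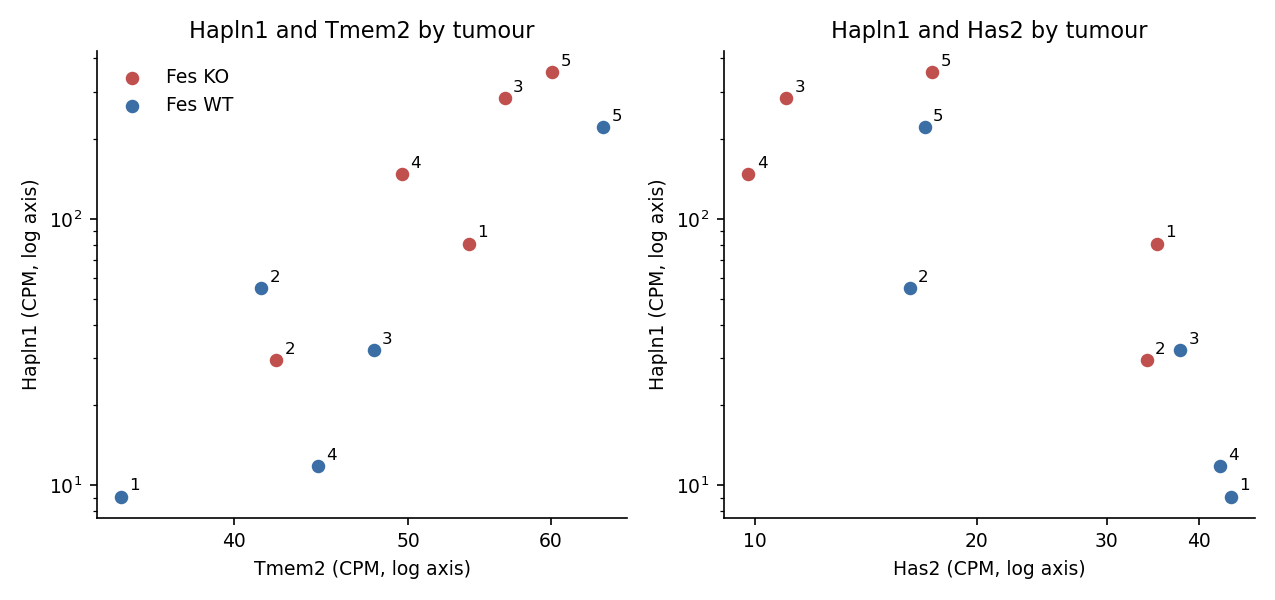
Hapln1 against Tmem2 (left) and against Has2 (right) in CPM, both on log axes, with 1 point per tumour labelled by its number, Fes KO in red and Fes WT in blue. Hapln1 is highest where Tmem2 is high (Fes KO 3, Fes KO 5 and Fes WT 5) and lowest in Fes WT 1 and Fes WT 4, where Has2 is at 44.1 and 42.7 CPM.

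For each gene, the tested genes with the most similar log2 CPM over the 10 tumours were listed by Pearson's r, 2 per gene. These are the highest of many values and carry no test. Hapln1 was most like Thsd4, which encodes a matrix protein, and Brinp2, each with r = 0.99. Brinp2 was at 63.4, 24.9, 198, 110 and 181 CPM in Fes KO 1 to 5 and at 7.90, 49.3, 17.1, 9.09 and 163 CPM in Fes WT 1 to 5. Tmem2 was most like the hedgehog ligand gene Dhh (r = 0.96) and the tyrosine kinase gene Abl2 (r = 0.96). Has3 was most like Dnase1l2 (r = 0.97), highest in Fes KO 2 with 51.4 CPM and otherwise within 3.86 to 11.5 CPM, and the transglutaminase gene Tgm6 (r = 0.96). Has1 was most like Cd83 (r = 0.95), at 53.7 CPM in Fes WT 3, and Lrrc18 (r = 0.93). Has2 was most like Tmem185b and Rpp38, Vcan like Ulbp1 and Csrnp2, and Cd44 like the chromatin protein gene Hmga2 and the class I gene H2-Q7, with r from 0.91 to 0.95. Hyal1 was most like Efnb3 and Fancg, Hyal2 like Prpf38a and Pcbp1, and Cemip like Taf1b and Auh, with r from 0.91 to 0.96. The Taf1b level ran only from 14.5 to 20.5 CPM while Cemip ran from 0.801 to 102 CPM.

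The rest of the hyaluronan pathway was described with 44 genes in 5 lists, of which 30 were tested. None of the 30 was called in edgeR, where 0.175% of tested genes were, 7 had an unadjusted p below 0.05 beside 9.62% of tested genes, and limma-voom called none. Their log2 fold changes lay below 0 in 23 and above 0 in 7, where 7056 of all 14816 tested genes lay below 0. The median of the 30 was -0.20 beside 0.01 for all tested genes. DESeq2 called 4, all lower in Fes KO, against 1.7% of its genes. They were Gfpt2, Hexa, Tlr2 and Adamts15.

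Precursor synthesis held 8 tested genes, 3 above and 5 below 0, with a median log2 fold change of -0.02. Ugp2, which makes UDP-glucose, had 0.00 (SE 0.16), Ugdh, which oxidizes it to UDP-glucuronic acid, 0.12 (SE 0.17), the rate-limiting hexosamine enzyme gene Gfpt1 0.06 (SE 0.14) and Uap1, which makes UDP-N-acetylglucosamine, -0.04 (SE 0.13). Gfpt2, the isoenzyme of Gfpt1, was named after its values were seen. It was at 20.6, 23.3, 34.5, 29.8 and 31.0 CPM in Fes KO 1 to 5 and at 42.5, 43.0, 52.9, 43.6 and 41.5 CPM in Fes WT 1 to 5, so the groups did not overlap. Its log2 fold change was -0.68 (SE 0.15, edgeR adjusted p = 0.156, DESeq2 adjusted p = 0.00284).

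Of the other hyaluronidases and lysosomal exoglycosidases, 2 of 7 were tested, and both lay below 0 with a median of -0.29. Hexa, which acts in lysosomal sugar breakdown, was at 207 to 266 CPM in Fes KO and 277 to 362 CPM in Fes WT, without overlap (log2 fold change -0.41, SE 0.11, edgeR adjusted p = 0.237). The glucuronidase gene Gusb had -0.18 (SE 0.12). Gfpt2 and Hexa were the 2 of 30 tested genes whose groups did not overlap, where 1.9% of all tested genes did not. Hyal3, Hyal4, Hyal5, Hyal6 and Spam1 fell under the filter.

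Among other receptors, 6 of 7 were tested, 1 above and 5 below 0, with a median of -0.48. The scavenger receptor gene Stab1 had -0.32 (SE 0.23), Lyve1, a receptor of lymphatic vessels and some macrophages, -0.10 (SE 0.63), and the Toll-like receptor genes Tlr2 and Tlr4 -0.93 (SE 0.26) and -0.65 (SE 0.21). Macrophages express Tlr2, Tlr4 and Stab1, and all 8 macrophage markers were above 0 in every tumour, with a summed level of 880 to 2061 CPM in Fes KO and 1406 to 3329 CPM in Fes WT. Their part in these values was not tested.

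Among other link proteins and binding proteins, 8 of 16 were tested, 2 above and 6 below 0, with a median of -0.35. Itih5, whose family supplies the heavy chains that attach to hyaluronan, was at 1993 ± 474 CPM in Fes KO against 2017 ± 615 CPM in Fes WT (SD, n = 5 each), with a log2 fold change of -0.02 (SE 0.25). Tnfaip6, which transfers such heavy chains, had -0.78 (SE 0.50) and Habp4 -0.13 (SE 0.13). Bcan, the lectican brevican, was at 9.90, 9.29, 65.5, 11.1 and 74.8 CPM in Fes KO 1 to 5 and at 2.02, 32.8, 7.88, 4.64 and 48.0 CPM in Fes WT 1 to 5. Its 3 highest tumours, Fes KO 3, Fes KO 5 and Fes WT 5, were also the 3 highest for Hapln1.

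The versican-cleaving proteases were all tested, with 1 of 6 above and 5 below 0 and a median of -0.27. Adamts15 was at 23.4 to 41.3 CPM in Fes KO and 39.97 to 196 CPM in Fes WT, highest in Fes WT 2 (log2 fold change -1.47, SE 0.41, edgeR adjusted p = 0.309). Adamts1 had 0.12 (SE 0.39), Adamts5 -0.22 (SE 0.25) and Adamts9 -0.02 (SE 0.14).

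**Figure D5:**
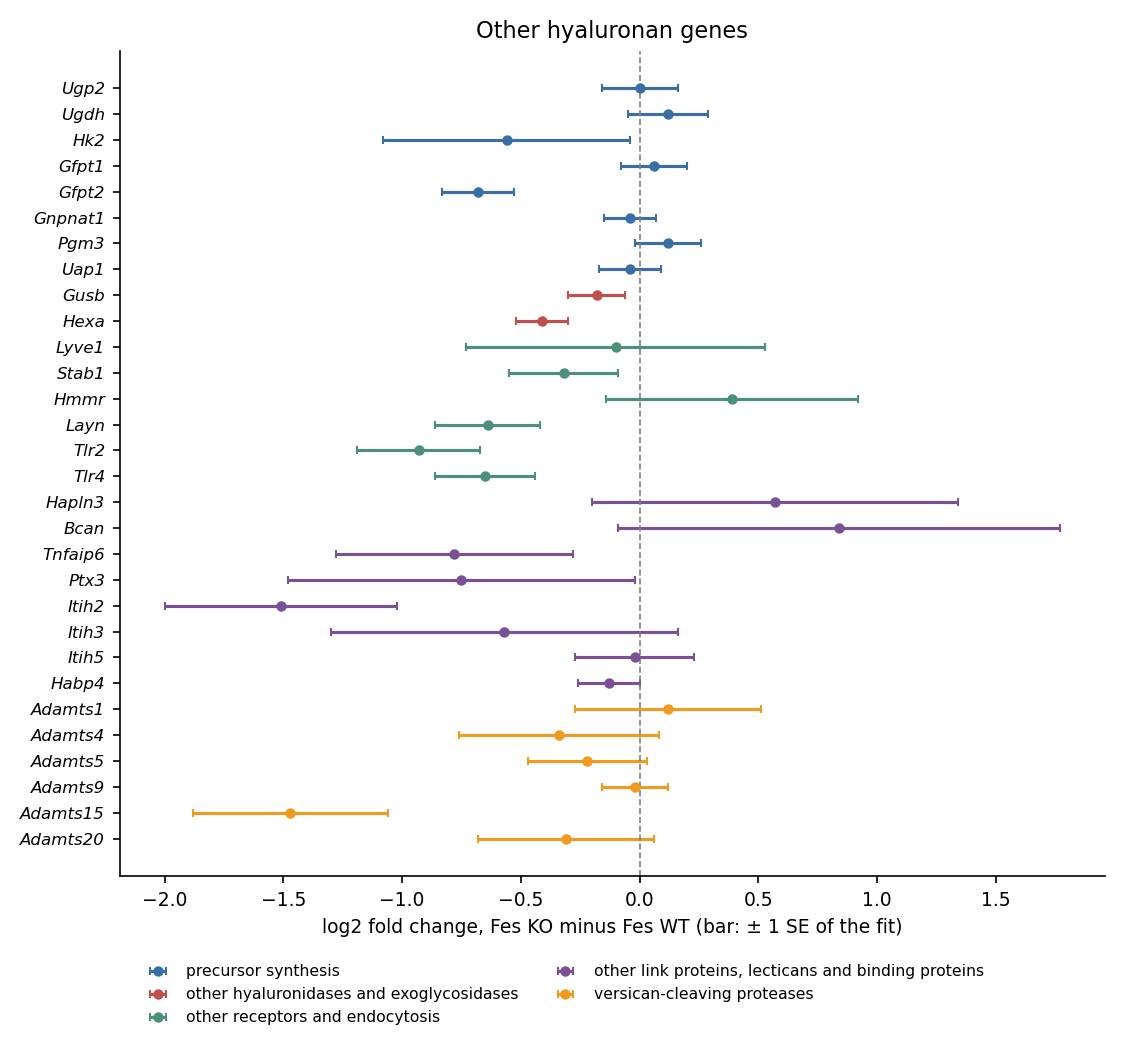
Log2 fold change, Fes KO minus Fes WT, of the 30 tested genes of the other hyaluronan lists, with 1 SE of the edgeR fit on either side, coloured by list, and a dashed line at 0. Itih2 lies lowest at -1.51 (SE 0.49) and Bcan highest at 0.84 (SE 0.93), and 23 of the 30 lie below 0, beside 7056 of all 14816 tested genes.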

How the data were processed

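RNA was sequenced from 10 melanomas, grouped and numbered by their titles. The authors deposited raw read counts per gene and normalized log2 values of the same genes. Per the submitters' processing notes, FastQC, STAR 2.51b and Subread 1.4.6 were used with mm10 and GRCm38, and no settings or strand option are given. The deposited log2 values equal log2 of (count over size factor + 1), with DESeq2 size factors recomputed here, within 5.01e-11.

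Counts were tested with edgeR 4.0.16 in R 4.3.3 (TMM, filterByExpr, quasi-likelihood, 2-sided, Benjamini-Hochberg over 14816 genes, threshold 0.05). The SE is the absolute log2 fold change over the square root of F. CPM used TMM library sizes, per-length levels used the exon union of GENCODE M21 (GRCm38), and log2 CPM had a prior count of 2. Pairs were tested with 100000 permutations, exactly below 10 tumours, and exactly within groups for centred values. Alternatives used DESeq2 1.42.0 and limma 3.58.1. On simulated counts of 14688 genes the edgeR fit recovered 42% of 2-fold and 82.5% of 4-fold changes, so many 2-fold differences would be missed. These rates were not split by how much a gene varied between tumours. Cemip, Hapln1 and Has1 varied far more than the median tested gene, with SDs of log2 CPM of 2.18, 1.87 and 1.3 against 0.29. The rates therefore do not give the chance of a call for Cemip, Hapln1 and Has1.

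The genes, lists and tests were chosen with earlier results of these data known. Named were the 10 genes, Fes, up to 4 genes of each other list by call and then mean CPM, and the 2 most alike genes of mean 1 CPM or more, without predicted genes and pseudogenes. Of the marker lists, no marker was called among those tested. A gene of the other lists is not reported here and was left out of their counts and medians.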

Additional observations from a re-analysis of the deposited data

Results flagged for a closer look

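In 3 of the 20 groups of 5 tumours, 1 tumour lay far above the others in CPM. The gap to its neighbour was over 0.71 of the group's range. Chance gives such a gap in about 1 in 20 groups where values are normally distributed. Here the gaps were taken on CPM without a log scale, all 3 lay at the high end, and the same tumours recur across genes. The 3 gaps therefore cannot be weighed against that rate. Cemip was at 101.9 CPM in Fes WT 1, Hapln1 at 220.4 CPM in Fes WT 5 and Has3 at 6.67 CPM in Fes KO 2. Fes WT 5 and Fes KO 2 are Xist-expressing tumours, and Fes KO 2 is the tumour highest in keratinocyte and hair follicle markers.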

How the results depend on the processing

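Of the 10 genes, 0 were called in the edgeR fit, 1 by DESeq2 (Cemip) and 1 with keratinocyte and muscle covariates (Vcan). Of the other hyaluronan genes, 0 were called in the edgeR fit, 4 by DESeq2 and 1 with the covariates (Hmmr, 0.99, SE 0.16, edgeR adjusted p = 0.0408). These fits called 0.175%, 1.7% and 0.749% of all their genes. DESeq2 without Fes WT replicate 1 called 1 (Gfpt2), in a fit that called 166 genes, whose share was not counted. Over 23 alternatives, all from the same 10 tumours, the log2 fold change kept its sign in all for Has1, Has2, Hyal2, Cemip, Tmem2, Cd44, Vcan and Hapln1. Some of these came close to 0, with Has1 at -0.02 without Fes KO 2 and Fes WT 3 together and Hyal2 at 0.02 without the 3 Xist-expressing tumours. Has3 turned from 0.40 to -0.21 in limma-voom, -0.55 without the 3 Xist-expressing tumours, -0.19 without Fes KO 2 and Fes WT 3 together and -0.28 without Fes KO 2, and Hyal1 turned from 0.15 to -0.01 without Fes KO 2. With 1 tumour left out, Has3 reached 0.61 and Hyal1 0.39. Likewise Hapln1 ranged from 1.04 to 2.73, Cemip from -4.08 to -1.47 and Has1 from -1.48 to -0.14. The smaller log2 fold changes moved by over 1.5 times as well, with Has2 at -0.81 to -0.37, Cd44 at -0.44 to -0.01, Tmem2 at 0.08 to 0.32 and Hyal2 at 0.12 to 0.36, while Vcan ranged from 0.33 to 0.68. Cd44 was at -0.75 without the 3 Xist-expressing tumours. The cause was not tested.

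Over all genes, 26 were called in the edgeR fit, 49 at an adjusted p below 0.1, 295 by DESeq2 and 166 without Fes WT replicate 1, 115 by limma-voom, 111 with the covariates, 64 without the Xist-expressing tumours and 10 to 54 with 1 tumour left out. The deviations of same-numbered tumours from their group means had r from -0.38 to 0.17, and whether such tumours share more than a number was not tested. With the replicate number as a block, 4 genes were called and none of the 10. Of the 45 pairs, 0 passed with all tumours and 0 to 1 with 1 tumour left out. Has1, from 3 reads in 1 tumour, and Cemip, from 12, are limited by depth.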
